A study of Mus musculus with 11 samples.

Results

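Transcripts of the monocyte-attracting and inflammatory CC chemokines Ccl2, Ccl7, Ccl12, Ccl3, Ccl4, Ccl5, Ccl6 and Ccl9, and of the receptor Ccr2, were examined in airway RNA of a mouse model of asthma exacerbation. The 9 genes were taken from the table of 21899 genes by matching its gene identifiers to these symbols. The matching did not use the measured values, but the genes were chosen with earlier results of these data known. All 9 had a mean of at least 0.5 FPKM over the libraries and were tested. FPKM scales the fragments counted on a gene by its exon length and by the depth of the library, so that levels of different genes can be set side by side.

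All groups were wild-type BALB/c males of 6 to 8 weeks, studied on day 25. The 3 PBS libraries came from nonsensitised mice given only PBS. The 4 OVA/LPS/Vehicle libraries came from mice sensitised with 50 µg ovalbumin (OVA) in 2 mg alum, challenged in the nose with 5 µg OVA, and also given 50 ng lipopolysaccharide (LPS) in the nose and a vehicle. The 4 OVA/LPS/GGsTop libraries came from mice with the same sensitisation, challenge and LPS that received 0.5 mg/kg GGsTop, an inhibitor of γ-glutamyl transferase, into the trachea in place of the vehicle. These 2 groups are called the vehicle group and the GGsTop group here. The labels name the tissue trachea, the study describes bluntly dissected airway without trachea, and the OVA/LPS/Vehicle libraries carry the double numbers 12, 34, 56 and 78 with no statement on whether mice were pooled. Nothing states that the other libraries are 1 mouse each, so the p-values measure the spread between these libraries.

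CC chemokines are small secreted proteins that guide leukocytes along gradients through receptors coupled to inhibitory G proteins. Ccl2, Ccl7 and Ccl12 act on CCR2, which draws inflammatory monocytes out of the bone marrow and into inflamed tissue. Ccl3, Ccl4 and Ccl5 attract macrophages, T cells and natural killer cells, Ccl3 and Ccl5 in part through CCR1. Ccl6 and Ccl9, made largely by macrophages and other myeloid cells, act on CCR1.

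Fold changes are given on the log2 scale of FPKM + 1, which understates the change of the low genes, from 1 limma fit of all 11 libraries and 14004 genes. Tests were two-sided, the adjustment (Benjamini-Hochberg) was over all of these genes, and an adjusted p under 0.05 made a call. In bulk tissue, fewer cells of a type and less RNA per cell cannot be told apart. Library totals recovered from the FPKM ran from 14513145 to 18632385 fragments. The thyroid gene Tg stood at 90.6, 166 and 303 FPKM in vehicle libraries 12, 34 and 56 and at most at 1.44 FPKM in every other library, and the parathyroid gene Pth at 5.997, 91.8 and 224 FPKM against at most 0.468 FPKM. The thymocyte gene Rag1 stood at 8.53 FPKM in library 12 and at 0.0976 FPKM or less in the others, and Scgb1a1 and Epcam, which mark airway epithelium, were at 26145 to 47905 and 30.5 to 59.1 FPKM throughout. Fold changes of the 9 genes and calls that rest on these 3 libraries are also given without them, where the lone library 78 is assumed to vary like the other groups, in a fit that called 4 genes against PBS and 0 against GGsTop. The values of a library also leaned on the GC content of the genes. For each 10 points of GC the log2 value moved by −0.261 to −0.19 in vehicle libraries, by 0.0464 to 0.108 in GGsTop libraries and by 0.0611, 0.0484 and 0.533 in PBS libraries, and it is said which calls were lost after a correction for it. Over all genes, 3096 were called lower and 2231 higher in the vehicle than in the PBS group, or 4570 and 1232 after scaling to the same FPKM total, a scaling that moves that comparison by −0.176 in log2 FPKM. GGsTop against vehicle gave 254 genes called lower and 966 called higher, or 155 and 2026 at the same FPKM total and 407 and 384 at the same median. GGsTop against PBS gave 115 and 288, or 243 and 250 at the same FPKM total.

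The 8 ligand genes lie in 2 groups on mouse chromosome 11 (GRCm38, GENCODE M21). Ccl2 (82035571 to 82037453), Ccl7 (82045712 to 82047525) and Ccl12 (82101845 to 82103400) are on the plus strand, with the eotaxin gene Ccl11 between Ccl7 and Ccl12, and Ccl8 beyond Ccl12. Ccl5 (83525778 to 83530518), Ccl9 (83572919 to 83578636), Ccl6 (83587882 to 83593087) and Ccl3 (83647844 to 83649355) are on the minus strand, and Ccl4 (83662584 to 83664683) is on the plus strand. Ccr2 lies on chromosome 9 (124101950 to 124113557, plus strand) next to Ccr3. Gm17268 overlaps Ccl2 on the opposite strand and was listed at 0 in every library, and E230016K23Rik overlaps Ccl6 on the opposite strand. Whether strand was used in counting is not stated, so reads of Ccl6 and of this transcript cannot be told apart. The coding sequences are distinct. Shares of identical alignment columns were taken with gaps counted as differences. The highest were 67.0% for Ccl3 and Ccl4, 64.8% for Ccl6 and Ccl9, and 63.5% for Ccl7 and Ccl12. This measure lowers the shares of Ccl2, whose coding sequence has 447 bases against 294 in Ccl7 and 315 in Ccl12. Ccl2 was identical to Ccl7 and Ccl12 in 204 and 217 columns, beside 202 between Ccl7 and Ccl12. Ccl2, Ccl7, Ccl12, Ccl3 and Ccl4 shared no stretch of 31 bases with transcripts of any other gene. Of the 31-base stretches of Ccl9, Ccr2, Ccl6 and Ccl5, 3.75%, 3.41%, 1.02% and 0.539% were shared with other genes. A small part of their reads could therefore match another gene as well, and how such reads were counted is not stated.

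Ccl6 and Ccl9 carry a shared stretch just before their start sites, and their 250 bases upstream are shown because these neighbouring genes are the abundant pair described together below. In these RefSeq sequences (GRCm38.p6, minus strand, 5′ to 3′) capitals mark CACTTCC, the reverse complement of GGAAGTG, an ETS core with a flank preferred by PU.1, the factor of the myeloid lineage.
Ccl6, chr11:83593088-83593337: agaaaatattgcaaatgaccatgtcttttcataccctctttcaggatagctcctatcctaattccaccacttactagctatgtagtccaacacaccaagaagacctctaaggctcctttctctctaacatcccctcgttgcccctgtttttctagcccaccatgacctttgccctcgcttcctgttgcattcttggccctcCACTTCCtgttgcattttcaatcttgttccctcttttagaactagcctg
Ccl9, chr11:83578637-83578886: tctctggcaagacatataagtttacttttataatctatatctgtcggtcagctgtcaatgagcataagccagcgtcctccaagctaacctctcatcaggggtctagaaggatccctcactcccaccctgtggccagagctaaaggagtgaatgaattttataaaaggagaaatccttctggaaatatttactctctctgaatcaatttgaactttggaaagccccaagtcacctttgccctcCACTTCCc
In a local alignment, 16 of 17 positions were identical, from 59 to 43 bases before the start of Ccl6 and from 18 to 2 bases before that of Ccl9, and the marked letters close the stretch in both. Either strand of GGAAGTG was present in 8.55% of 32851 promoters of the same length, and in Ccl6, Ccl9 and Ccl12 among the 5 genes here with a promoter sequence (Ccl12, Ccl3, Ccl6, Ccl9 and Ccr2). The AP-1 letters TGANTCA were found in 6.75% of promoters and here in Ccl9, the NF-κB consensus in 7.25% and here in Ccl9, the TATA letters TATAAAA in 4.98% and here in Ccl12 and Ccl9, and the interferon-stimulated response element core, a pair of GAAA blocks with any 2 bases between them, in 2.98% and in none of the 5. Both strands were searched, and a match is a string of letters and not a site. In Ccl9 the AP-1 match (53 to 47 bases before the start), the NF-κB match (35 to 26) and the GGAAGTG match (8 to 2) did not overlap.

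Ccl6 was by far the most abundant of the 9 transcripts in each group, with group means of 64.1 FPKM (PBS), 126 FPKM (OVA/LPS/Vehicle) and 129 FPKM (OVA/LPS/GGsTop). It made up 63.6% to 82.8% of the summed FPKM of the 8 ligands in a library. Ccl5, Ccl9 and Ccr2 followed at group means of 4.96 to 15.0 FPKM, and Ccl2, Ccl7, Ccl12, Ccl3 and Ccl4 were low, at 0.474 to 3.96 FPKM. Below Ccl6 in the PBS group, Ccl5 stood above Ccr2 with no overlap of their libraries, Ccr2 and Ccl9 overlapped, and Ccl12, Ccl7, Ccl3 and Ccl2 overlapped each with the next. In both OVA/LPS groups Ccl9 came second and overlapped with Ccl5, which overlapped with Ccr2. The low ligands rest on few fragments: Ccl4 on 2 to 22 in a library, Ccl3 on 6 to 35, Ccl12 on 9 to 36, Ccl7 on 9 to 73 and Ccl2 on 17 to 102, against 444 to 1104 for Ccr2 and 1506 to 6033 for Ccl6. For the 2 Ccl4 fragments of PBS library 1, the exact 95% Poisson interval ran from 0.0244 to 0.727 FPKM, and such intervals cover counting error only.

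**Figure D1:**
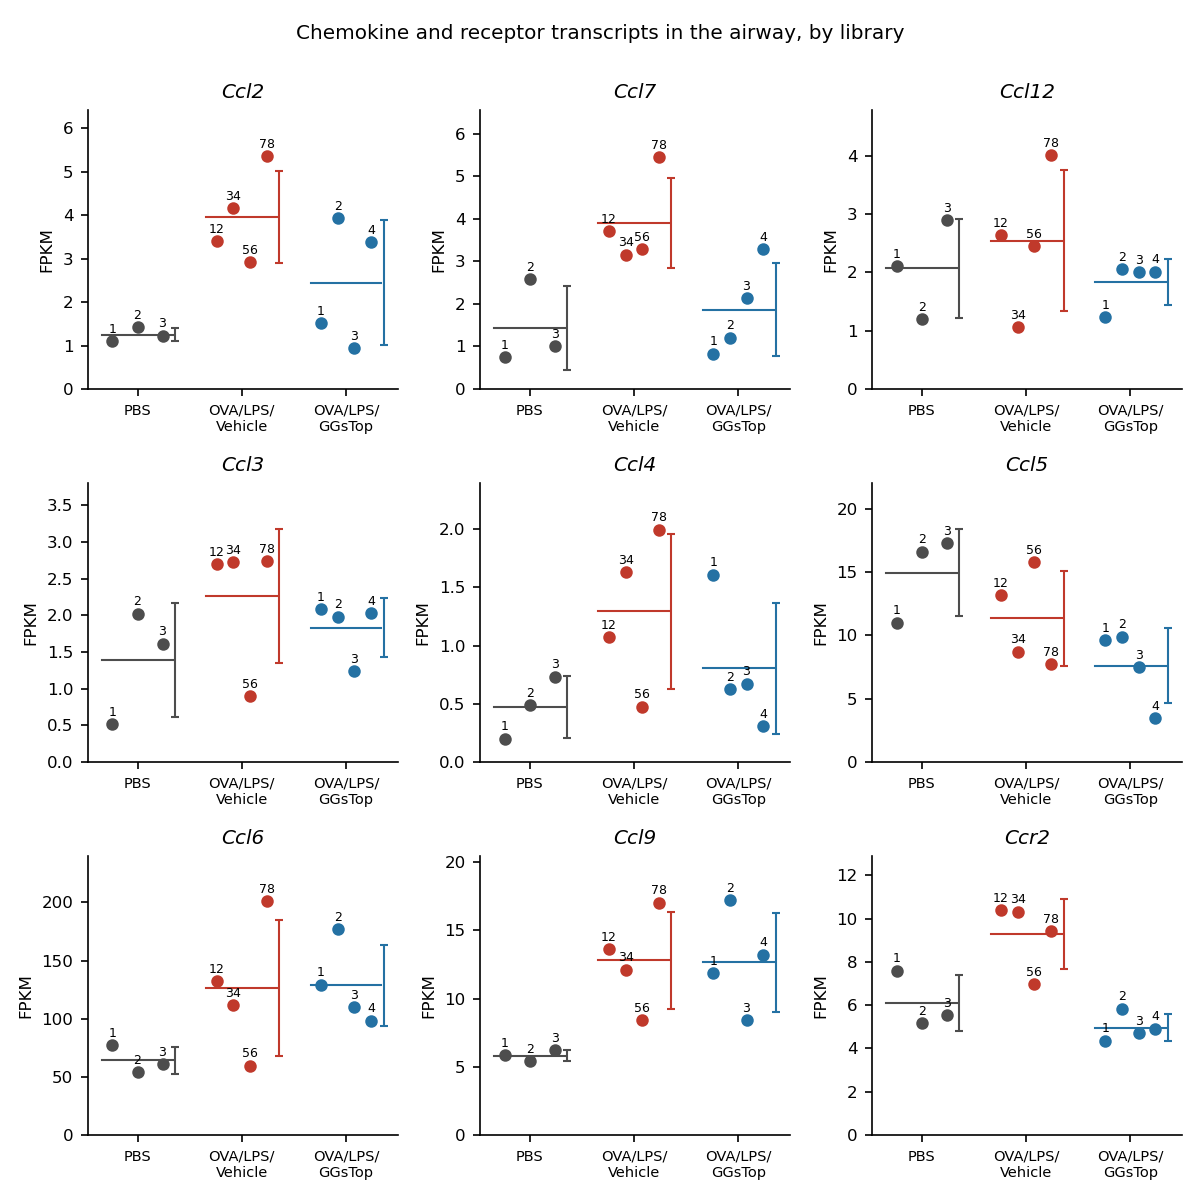
FPKM of each gene in every library (points, with the library number), with the group mean (horizontal line) and SD (error bar at its right), on axes that start at 0. Ccl2 was above the 3 PBS libraries in all 4 OVA/LPS/Vehicle libraries, Ccr2 was lower in each OVA/LPS/GGsTop library than in each OVA/LPS/Vehicle library, and Ccl6 and Ccl9 overlapped in these last 2 groups.

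The comparison of vehicle with PBS mice asks which of these transcripts differ in the exacerbation model. Ccl2, Ccl7, Ccl9 and Ccr2 were called higher, at 1.52 to 3.17 times the mean level of the PBS group, and none was called lower. This is 4 of 9 genes, beside 38% of all genes tested that were called in either direction (15.9% higher and 22.1% lower). In 3 of the 9 every vehicle library was above every PBS library, which held for 18.7% of all genes. The median log2 fold change was 0.60 over the 9 genes and −0.01 over all genes. After the GC correction none of the 9 was called, while their median was 0.58. Without vehicle libraries 12, 34 and 56 none was called either, in a fit that called 4 genes in all.

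Among the CCR2 ligands, Ccl2 (MCP-1) is the main attractant of monocytes. It stood at 1.11, 1.42 and 1.23 FPKM in the PBS libraries 1, 2 and 3. In vehicle libraries 12, 34, 56 and 78 it stood at 3.40, 4.17, 2.92 and 5.36 FPKM. All 4 were above all 3 PBS libraries (log2 1.12, SE 0.29, adjusted p = 0.0141). The call held with each library left out in turn. It was lost after the GC correction, where the fold change was 0.84 (adjusted p = 0.0671), and library 78 alone gave 1.50 (adjusted p = 0.209).

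Ccl7 (MCP-3) attracts monocytes and also eosinophils through CCR3. Its levels were 0.746, 2.58 and 1.01 FPKM in the PBS libraries and 3.70, 3.16, 3.29 and 5.45 FPKM in the vehicle libraries. These groups did not overlap either, with PBS library 2 the nearest (log2 1.05, SE 0.31, adjusted p = 0.0224). The call was lost without PBS library 1, PBS library 3 or vehicle library 78 (adjusted p = 0.0807, 0.0901 and 0.059) and after the GC correction (log2 0.70, adjusted p = 0.123). Library 78 alone gave 1.47 (adjusted p = 0.213).

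Ccl12 (MCP-5), a mouse ligand of CCR2, was not called. It was at 2.10, 1.201 and 2.90 FPKM in the PBS group and 2.64, 1.06, 2.45 and 4.01 FPKM in the vehicle group. The groups overlapped over most of their range, and the 95% interval of the log2 difference was −0.42 to 0.78 (log2 0.18, adjusted p = 0.623, −0.22 after the GC correction and 0.75 with library 78 alone). The 3 CCR2 ligands summed to 3.96 to 5.20 FPKM in PBS libraries and to 8.39 to 14.8 FPKM in vehicle libraries.

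The assay primers of the study for MCP-1, shown because they read the same transcript as the Ccl2 values above, match the 813-base Ccl2 transcript of 3 exons in GENCODE M21 from its base 11 to base 236, a product of 226 bases.
MCP-1 forward: AGAGCCAGACGGGAGGAAG
MCP-1 reverse: CCAGCCTACTCATTGGGATC
The forward primer lies in exon 1 before the coding sequence, which starts at base 92, and the reverse primer pairs with exon 2. The second annotated Ccl2 transcript, which keeps an intron, holds the reverse site and not the forward site.

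Of the ligands Ccl3, Ccl4 and Ccl5, none passed the test. Ccl3 (MIP-1α) was at 0.520, 2.02 and 1.61 FPKM in the PBS group and at 2.69, 2.73, 0.901 and 2.73 FPKM in the vehicle group. Libraries 12, 34 and 78 were above the PBS group and library 56 was inside its range (log2 0.46, SE 0.28, adjusted p = 0.208). Ccl4 (MIP-1β) was at 0.201, 0.489 and 0.732 FPKM and at 1.08, 1.63, 0.475 and 1.99 FPKM in the same order. Library 56 again lay among the PBS libraries (log2 0.60, SE 0.27, adjusted p = 0.0957). Ccl5 (RANTES), which T cells and natural killer cells make in quantity, was at 10.996, 16.6 and 17.3 FPKM and at 13.2, 8.70, 15.7 and 7.73 FPKM. Its sign was opposite to that of the other 8 genes, and the groups overlapped (log2 −0.40, SE 0.32, adjusted p = 0.336). The fold changes of Ccl3, Ccl4 and Ccl5 were 0.30, 0.61 and −0.24 after the GC correction, and 0.71, 1.04 and −0.85 with library 78 alone.

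Of the abundant neighbouring pair, Ccl9 (MIP-1γ) was called and Ccl6 (C10) was not. Ccl9 was at 5.84, 5.40 and 6.24 FPKM in the PBS group and at 13.6, 12.1, 8.40 and 17.0 FPKM in the vehicle group. The groups did not overlap (log2 0.98, SE 0.23, adjusted p = 0.00993), and the call held with each library left out. After the GC correction it was lost (log2 0.58, adjusted p = 0.124), and library 78 alone gave 1.40 (adjusted p = 0.205). Ccl6 was at 77.4, 54.1 and 60.8 FPKM and at 132, 111, 59.7 and 201 FPKM. Here too library 56 was inside the PBS range while the other 3 were above it (log2 0.86, SE 0.34, adjusted p = 0.0643, or 0.63 after the GC correction and 1.65 with library 78 alone). Without library 56, Ccl3, Ccl4 and Ccl6 were called as well (adjusted p = 0.0477, 0.041 and 0.0172), which made 7 of 9 genes.

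Library 56 had the lowest value of the vehicle group in 6 of the 9 genes (Ccl2, Ccl3, Ccl4, Ccl6, Ccl9 and Ccr2), and library 78 had the highest in 7 of 9. The macrophage gene Adgre1 stood at 4.22 FPKM in library 56, against 8.34 to 12.5 FPKM in the other 3 and 5.80 to 7.46 FPKM in the PBS group. Eosinophil markers summed to 3.03 FPKM in library 56, 5.90 to 10.2 FPKM in the other 3 and 6.80 to 8.36 FPKM in the PBS group. Neutrophil markers summed to 139 FPKM, 232 to 263 FPKM and 112 to 357 FPKM in the same order. The 10 macrophage markers summed to 2517 to 3476 FPKM in PBS, 2082 to 3000 FPKM in vehicle and 2067 to 3337 FPKM in GGsTop libraries, and none was at 0 in any library. Lyz2 alone, at 2356 to 3293, 1905 to 2748 and 1828 to 3078 FPKM in the same order, made up most of these sums. Of the 10 fold changes, 5 were above 0 and 5 below in vehicle against PBS mice. With GGsTop, 9 were above 0 and 1 below against vehicle, and 6 above and 4 below against PBS. In vehicle against PBS mice C1qa was called higher (log2 0.66, lost without PBS 1 or vehicle 78) and Mertk lower (log2 −0.47, lost in all 7 fits that left out a library), and none was called in the other comparisons. After the GC correction both kept the call and C1qb was also called higher (log2 0.81). With library 78 alone neither C1qa nor Mertk was called, at 1.03 and −0.62. The part of macrophage, eosinophil or neutrophil RNA in these values was not tested. Nor was the part of the thyroid RNA, which was highest in library 56.

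The receptor Ccr2 was at 7.60, 5.18 and 5.54 FPKM in the PBS group and at 10.4, 10.3, 6.98 and 9.44 FPKM in the vehicle group. Library 56 lay below PBS library 1, so the groups overlapped (log2 0.53, SE 0.16, adjusted p = 0.0222). Ccr2 has the lowest GC content of the 9 genes (39.4%), and after the GC correction its fold change was 0.02 (adjusted p = 0.948). Scaling to the same FPKM total gave 0.38 (adjusted p = 0.0874), library 78 alone gave 0.57 (adjusted p = 0.232), and the call was lost in 5 of 7 fits that left out a single library (without PBS 2 or 3, or vehicle 12, 34 or 78).

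**Figure D2:**
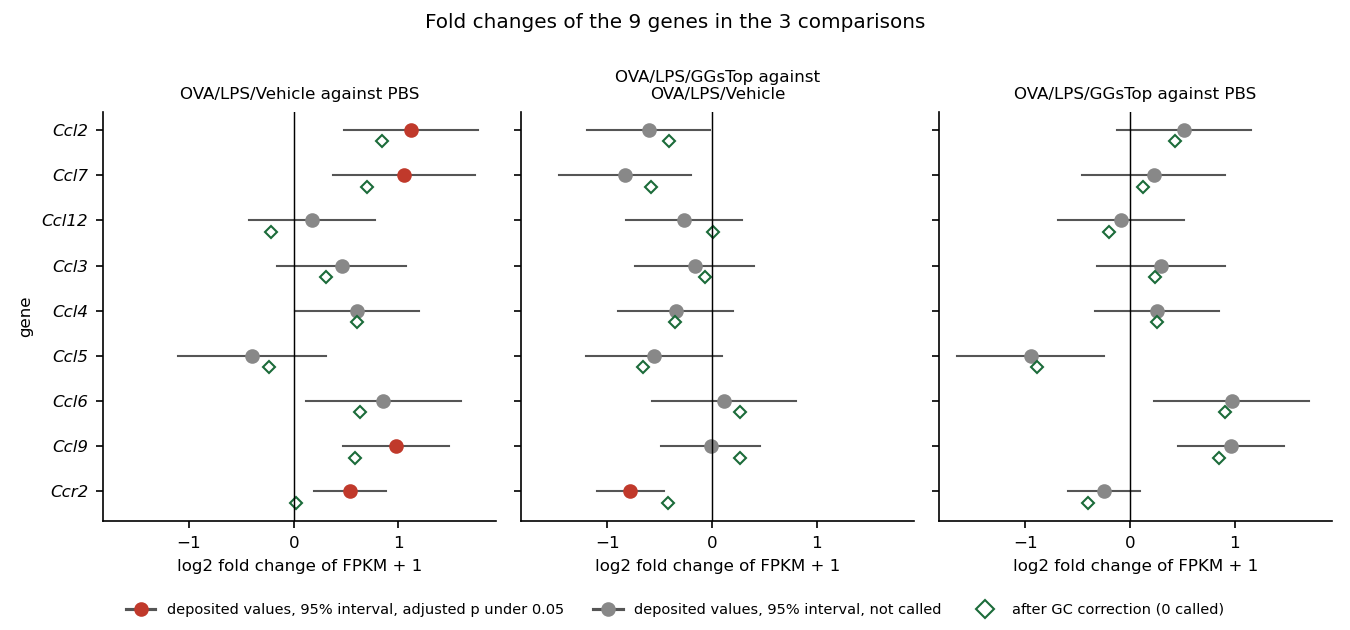
Log2 fold change of FPKM + 1 for the 9 genes in the 3 comparisons, with the 95% interval of the limma fit (line), red where the adjusted p was under 0.05 and grey where not, and the value after the GC correction (open diamond). Ccl2, Ccl7, Ccl9 and Ccr2 are red in the first panel and Ccr2 alone in the second, and the diamond of Ccr2 in the first panel is at 0.02.

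The comparison of GGsTop with vehicle mice asks what treatment with the inhibitor changes in the exacerbation model. Ccr2 was called lower, at 0.534 times the mean level of the vehicle group, and none of the 8 ligands was called, with Ccl2 and Ccl7 at an unadjusted limma p under 0.05. This is 1 of 9 genes, beside 8.71% of all genes tested that were called (1.81% lower and 6.9% higher). The median log2 fold change was −0.34 over the 9 genes and 0.03 over all genes, and 8 of the 9 were below 0, among them Ccl9 at −0.01, whose sign turned at the same FPKM total (0.08) and after the GC correction (0.27), where Ccl12 also turned. This comparison and the one before share the vehicle libraries, so a high value there enters both with opposite sign.

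Ccr2 stood at 4.36, 5.84, 4.72 and 4.92 FPKM in GGsTop libraries 1 to 4. Each was lower than every vehicle library, of which library 56 with 6.98 FPKM was the nearest. Groups that did not overlap in this direction were found for 12.4% of all genes. The difference passed the test at log2 −0.78 (SE 0.15, adjusted p = 0.0198). After the GC correction it was −0.42 (adjusted p = 0.16), and the slopes on GC content of these groups, given above, do not overlap. The call was also lost without vehicle library 34 or 78 (adjusted p = 0.0597 and 0.0501) or GGsTop library 1 or 3 (0.0714 and 0.0524), with a log2 fold change of −0.90 to −0.72 over the 8 fits that left out a library. Library 78 alone against the treated group gave −0.81 (adjusted p = 0.772).

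Ccl7 was at 0.8291, 1.204, 2.14 and 3.29 FPKM in the GGsTop libraries. Library 4 lay within the vehicle group and the other 3 below it, and the difference did not pass the test (log2 −0.83, SE 0.29, adjusted p = 0.0847). It did without library 4 (log2 −1.05, adjusted p = 0.0434). Ccl2 was at 1.52, 3.94, 0.947 and 3.38 FPKM. Libraries 2 and 4 lay within the range of the vehicle group, while library 1 lay just above and library 3 below the range of the PBS group (log2 −0.61, SE 0.27, 95% interval −1.20 to −0.01, adjusted p = 0.154). Library 78 alone against the GGsTop group gave −0.99 for Ccl2 and −1.25 for Ccl7 (adjusted p = 0.772 for both).

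Markers of the larger airway varied between the libraries. The basal cell keratin Krt5 was at 2.30 and 0.0288 FPKM in GGsTop libraries 1 and 3 and at 7.12 and 33.1 FPKM in libraries 2 and 4. The cartilage gene Acan was at 0 in libraries 1 and 3 and at 5.55 and 23.0 FPKM in 2 and 4. In the vehicle group Krt5 was at 11.03 to 16.0 FPKM, and in the PBS group at 0.816, 12.9 and 0.0977 FPKM with Ccl2 at 1.11 to 1.42 FPKM throughout. The 4 cartilage markers summed to 0.691 to 46.0 FPKM in PBS, 6.88 to 17.0 FPKM in vehicle and 0.562 to 47.8 FPKM in GGsTop libraries, and none of them was called in any comparison. The part of the dissected tissue in the Ccl2 values was not tested.

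**Figure D3:**
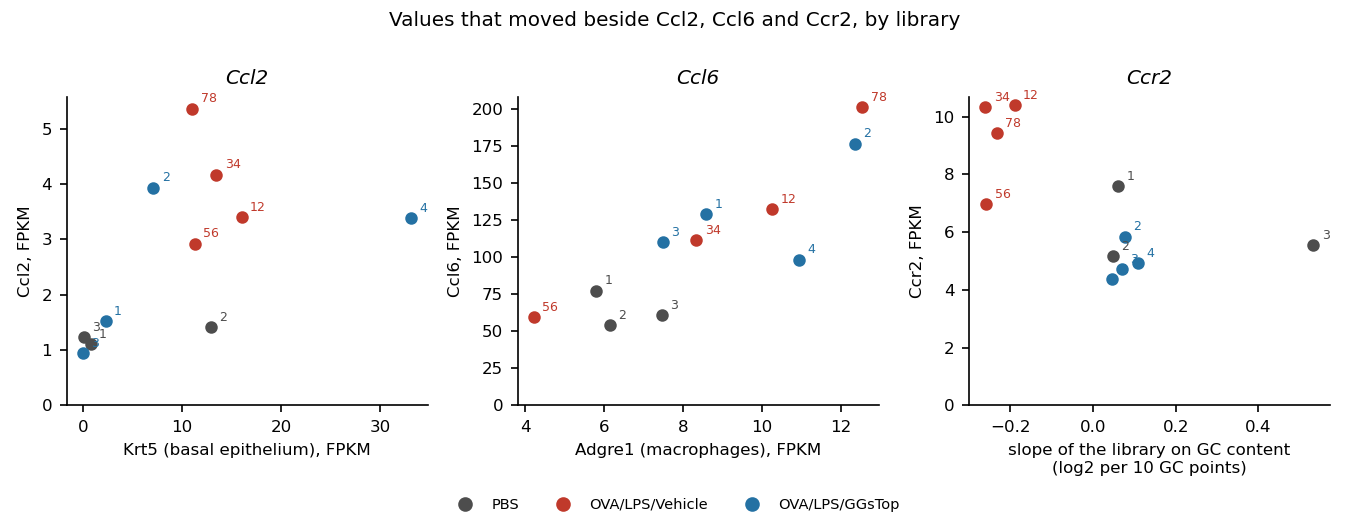
Ccl2 against the basal epithelial gene Krt5, Ccl6 against the macrophage gene Adgre1 (all FPKM), and Ccr2 in FPKM against the slope of the library on GC content in log2 per 10 GC points, with 1 numbered point per library coloured by group. The OVA/LPS/GGsTop libraries 1 and 3 are low for both Ccl2 and Krt5, OVA/LPS/Vehicle library 56 is low for both Ccl6 and Adgre1, and the OVA/LPS/Vehicle libraries have the lowest slopes and mostly the highest Ccr2.

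Ccl12 was at 1.24, 2.05, 2.01 and 2.01 FPKM with GGsTop, all inside the range of the vehicle group (log2 −0.27, 95% interval −0.82 to 0.29, adjusted p = 0.494). Ccl3 was at 2.08, 1.98, 1.24 and 2.03 FPKM (log2 −0.16, 95% interval −0.73 to 0.41, adjusted p = 0.70). Ccl4 was at 1.61, 0.626, 0.672 and 0.307 FPKM (log2 −0.34, 95% interval −0.89 to 0.20, adjusted p = 0.365). In each of these 3 genes the groups overlapped, and the intervals leave room for a change of either sign. Ccl5 was at 9.62, 9.90, 7.46 and 3.45 FPKM, with 2 libraries below the vehicle range (log2 −0.55, 95% interval −1.20 to 0.10, adjusted p = 0.226).

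Ccl6 and Ccl9 were close between these groups. Ccl6 was at 129, 177, 110 and 98.3 FPKM with GGsTop, all within the range of the vehicle group, and the log2 fold change was 0.12 (95% interval −0.57 to 0.80, adjusted p = 0.8288). Ccl9 was at 11.9, 17.2, 8.43 and 13.2 FPKM, a log2 fold change of −0.01 (95% interval −0.48 to 0.46, adjusted p = 0.976). The signs of both turned in some alternatives, and an interval of this width does not show that the levels were equal. Against library 78 alone Ccl12, Ccl3, Ccl4, Ccl5, Ccl6 and Ccl9 were at log2 −0.84, −0.41, −0.78, −0.10, −0.68 and −0.44, and after the GC correction at 0.01, −0.06, −0.35, −0.66, 0.27 and 0.27, none called.

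The comparison of GGsTop with PBS mice asks how far the treated airway stands from the unexposed one, and shares its libraries with the comparisons above. None of the 9 genes was called, beside 2.88% of all genes called (2.06% higher and 0.821% lower). With the numbers 1 to 3 shared by these groups as a block, to which GGsTop library 4 adds nothing, 62 genes were called in place of 403, against 200 when library 4 was left out without a block, and again none of the 9. In the limma fit 3 of the 9 (Ccl5, Ccl6 and Ccl9) had an unadjusted p under 0.05, and limma voom on the recovered fragments also called 0. Ccl9 was the nearest to the threshold, with all 4 treated libraries above all 3 PBS libraries, with a mean and SD of 12.7 ± 3.63 (n = 4) against 5.83 ± 0.419 FPKM (n = 3) in the limma fit (log2 0.96, SE 0.23, adjusted p = 0.0501). It was called without GGsTop library 3 (adjusted p = 0.0161) and in some alternatives. Ccl6 also did not overlap, at 129 ± 34.6 against 64.1 ± 11.97 FPKM (log2 0.97, SE 0.34, adjusted p = 0.142). Ccl5 lay lower in each treated library than in each PBS library, at 7.61 ± 2.98 against 15.0 ± 3.45 FPKM (log2 −0.95, SE 0.32, adjusted p = 0.134). Groups did not overlap for 7.22% of all genes in the higher and 7.54% in the lower direction. The levels of Ccl2, Ccl7, Ccl12, Ccl3, Ccl4 and Ccr2 overlapped with those of PBS mice, with log2 fold changes of −0.24 to 0.51.

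Among the other receptors, Ccr1, the receptor of Ccl3, Ccl5, Ccl6 and Ccl9, was called higher in the vehicle than in the PBS group, at 5.91 ± 1.89 against 3.30 ± 0.428 FPKM (log2 0.64, SE 0.21, adjusted p = 0.0316). The call was lost after the GC correction (log2 0.12) and with library 78 alone (log2 1.07), and held in 1 of 7 fits that left out a library (without vehicle 56). With GGsTop its log2 fold change against the vehicle group was −0.43 (adjusted p = 0.152). Ackr1, which binds chemokines on venules and red cells, and Ackr2, which removes them from lymphatic and other surfaces, were called in neither comparison: log2 1.004 and −0.54 in vehicle against PBS mice (adjusted p = 0.122 and 0.202), and −0.80 and 0.23 with GGsTop against the vehicle (0.246 and 0.643).

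Ccl8 and Ccl11, which lie beside Ccl7 and Ccl12, were called higher in the vehicle than in the PBS group, and Ccl24, the third gene of the list of other ligands, was not. Ccl8 (MCP-2) was at 2.21, 8.96 and 2.21 FPKM in PBS and at 52.9, 36.6, 13.6 and 75.4 FPKM in vehicle libraries (log2 3.05, SE 0.62, adjusted p = 0.00598). Ccl11 (eotaxin-1), which attracts eosinophils through CCR3, was at 2.27, 5.25 and 0.893 FPKM and at 17.2, 14.2, 8.46 and 21.2 FPKM (log2 2.20, SE 0.40, adjusted p = 0.00451). Both calls held after the GC correction (log2 2.98 and 1.81) and with each library left out, and were lost with library 78 alone (log2 4.03 and 2.71, adjusted p = 0.205 for both). With GGsTop neither differed from the vehicle group by the test (log2 −0.18 and 0.03, adjusted p = 0.863 and 0.97), and both were called higher than in the PBS group (log2 2.87 and 2.23, adjusted p = 0.0348 and 0.02). These calls were lost without PBS 1, PBS 3, GGsTop 1 or GGsTop 2, and that of Ccl8 also without GGsTop 4, with an adjusted p of at most 0.141 and 0.0921.

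**Figure D4:**
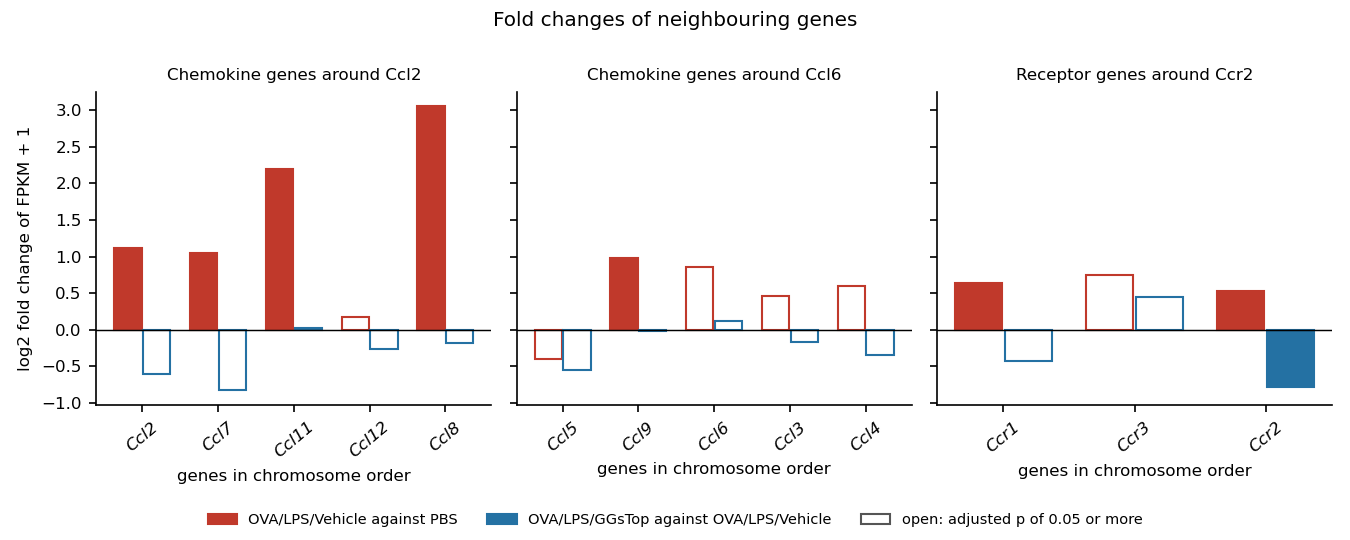
Log2 fold change of FPKM + 1 of the chemokine genes tested around Ccl2 and around Ccl6 on chromosome 11 and of Ccr1, Ccr3 and Ccr2 on chromosome 9, in chromosome order, for OVA/LPS/Vehicle against PBS (red) and OVA/LPS/GGsTop against OVA/LPS/Vehicle (blue), filled where the adjusted p was under 0.05. Ccl11 and Ccl8 stand at 2.20 and 3.05 beside Ccl2 and Ccl7 at 1.12 and 1.05, and Ccr2 has the filled blue bar, at −0.78.

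Among 12 genes known to induce these ligands, 10 were tested. Tlr4, the LPS receptor, was called higher in vehicle than in PBS mice (log2 0.66, adjusted p = 0.0194), while its adaptor Myd88 (−0.54, adjusted p = 0.00449) and the NF-κB subunits Nfkb1 (−0.35, adjusted p = 0.0304) and Rela (−0.83, adjusted p = 0.00366) were called lower. After the GC correction Tlr4 lost its call (log2 0.14) and the other 3 kept theirs. Tlr4 also lost it without PBS 3 or vehicle 78, Nfkb1 without PBS 3 or vehicle 34, 56 or 78, and all 4 with library 78 alone, where the fold changes were 0.90 (Tlr4), −0.43 (Myd88), −0.31 (Nfkb1) and −0.81 (Rela). None of the 10 was called in the other comparisons. Of 7 genes that act below the receptors, the G protein subunit gene Gnai2 (log2 −0.66, adjusted p = 0.0139) and the receptor kinase gene Grk2 (−0.64, adjusted p = 0.0082) were called lower, and Rgs1, which dampens chemokine receptor signals, higher (0.72, adjusted p = 0.00798) in vehicle than in PBS mice. All 3 lost the call after the GC correction, and with library 78 alone at about the same fold change (−0.68, −0.71 and 0.79), and none of the 7 was called in the other comparisons.

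Markers of cells that carry CCR2 or make these ligands were read beside the 9 genes. The 7 markers of inflammatory monocytes summed to 71.1 to 80.6 FPKM in PBS, 49.1 to 70.0 FPKM in vehicle and 51.7 to 66.7 FPKM in GGsTop libraries, and none was at 0 in any library. Csf1r, the receptor of the macrophage growth factor, was called lower in vehicle than in PBS mice (log2 −0.61, adjusted p = 0.0151), a call lost after the GC correction (log2 −0.36, adjusted p = 0.0774) and without PBS 3. It was called higher with GGsTop than with vehicle (log2 0.61, adjusted p = 0.0351), a call lost after the GC correction (log2 0.44) and without vehicle 34, 56 or 78 or GGsTop 1, 2 or 3. Both were lost with library 78 alone, at −0.35 and 0.35. Ms4a4c was at −0.86 with GGsTop against vehicle (adjusted p = 0.0565), and the median of the list was −0.20. Ly6c2 went the other way, at mean levels of 3.43 FPKM (PBS), 2.74 FPKM (vehicle) and 4.75 FPKM (GGsTop). Of the 7 fold changes, 2 were above 0 and 5 below, both in vehicle against PBS mice and with GGsTop against vehicle. The 10 markers of T cells and NK cells summed to 36.1 to 48.7 FPKM in PBS, 27.5 to 76.3 FPKM in vehicle and 19.8 to 25.7 FPKM in GGsTop libraries, the highest in vehicle library 12, which held thymocyte genes, and none was at 0. All 10 were below 0 with GGsTop against vehicle, and 2 of them were called lower. These were Gzma (log2 −0.91, adjusted p = 0.0126), a call that held after the GC correction and was lost without GGsTop 1, and Ncr1 (log2 −0.54, adjusted p = 0.0406), a call lost after the GC correction and in 7 of 8 fits that left out a library, all but the one without vehicle 78. With library 78 alone neither was called (log2 −0.73 and −0.22). In vehicle against PBS mice Prf1 was called lower, also with each library left out, and Gzmb was called lower but in 1 of 7 fits that left out a library (without vehicle 12). Both calls held after the GC correction and were lost with library 78 alone, at −1.12 and −0.99. Lower in GGsTop against PBS mice were Gzma, Prf1 and Ncr1, all 3 of which lost the call with the replicate numbers as a block (adjusted p = 0.0508, 0.0505 and 0.0788). The part of these cells in the levels of Ccr2 and Ccl5, which were also lowest in mean in the GGsTop group, was not tested.

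In vehicle against PBS mice the calls were Csf3r and Mmp9 lower of 6 neutrophil markers tested, Prg2 higher of 4 of eosinophils, Kit lower of 4 of mast cells, Epcam and Foxj1 higher of 6 of airway epithelium, Col1a1 and Pdgfra lower of 5 of fibroblasts, Cdh5, Vwf and Kdr lower of 4 of endothelium, and Tg and Pth higher among those of thyroid and parathyroid. Of the fold changes in this comparison, 4 were above 0 and 2 below for neutrophils, 2 and 2 for eosinophils, and 3 and 1 for mast cells. In the same order they were 6 and 0 for airway epithelium, 2 and 3 for fibroblasts, and 0 and 4 for endothelium. The calls of Foxj1 and Pdgfra held with each library left out, and those of the others did not. After the GC correction those of Csf3r, Mmp9, Col1a1, Cdh5, Vwf, Kdr and Pth were lost. With library 78 alone none of these was called, at fold changes of the same sign except for Tg and Pth. With GGsTop against vehicle the calls were Cpa3 lower (mast cells) and Tg lower, both lost after the GC correction and with library 78 alone. Against PBS, Prg2 and Foxj1 were higher, also after the GC correction. None was called among 5 markers of dendritic cells, 4 of smooth muscle and 2 of immature thymocytes.

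Over the 11 libraries, the genes whose log2(FPKM + 1) followed each member most closely are given as a description, since libraries of a group share their treatment and GC slope. For Ccl9 these were Fcgr2b, an inhibitory IgG receptor of macrophages and B cells (Pearson r = 0.989), Slc26a4 (0.971) and Chil3, a secreted protein of alternatively activated macrophages (0.97). For Ccl6 they were Lilr4b (0.957), Clec4a3 (0.94) and Trem2, a lipid receptor of macrophages (0.93). Ccl2 was followed by Ifi202b (0.941), Vnn3 (0.937) and Steap4 (0.935), and Ccl7 by Ifit1 (0.94), Cdc42ep3 (0.906) and mt-Nd4l (0.903). For Ccl5 they were Slfn1 (0.903), the lymphotoxin gene Ltb (0.902) and Nxpe3 (0.899). Ccr2 was followed by Id2 (0.929), Ypel2 (0.908) and Parp9 (0.905). The low genes had looser partners: Msr1 (0.828), Cmtm7 (0.818) and Kif3b (0.807) for Ccl3, Lrp12 (0.847), 1700001P01Rik (0.832) and Cd244a (0.797) for Ccl4, and Snrpg (0.758), Susd1 (0.682) and Rpl13a (0.673) for Ccl12.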

How the data were processed

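RNA of 11 libraries (3 of PBS mice, 4 of the vehicle group, 4 of the GGsTop group) was compared, grouped by the labels. The authors deposited FPKM, 1 column per library, with no further scaling. Per the labels, the submitters' processing notes list cutadapt 1.15, HISAT2 2.0.5, HTSeq 0.9.1 and mm39, and the annotation is not given in the sources used here. Identifiers of 21795 genes were matched to GENCODE M21 on GRCm38, the only build whose coordinates are printed. FPKM times exon length gave whole fragments (within 0.05) in all libraries for 21369 genes (97.6%).

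Genes whose mean reached 0.5 FPKM entered a limma 3.58.1 fit (R 4.3.3) of log2(FPKM + 1), its prior variance following the mean level. The study's own test models counts and was not used. The GC correction subtracted a natural spline with 5 degrees of freedom from each library. Also tried were 0.1 in place of 1 as pseudocount, a filter at 1 FPKM, no filter, 2 scalings, no trend, array weights, only the groups compared, each library left out and a replicate block. The fit of voom on the recovered fragments (13671 genes) and the fits without vehicle libraries 12, 34 and 56 were chosen after seeing the data. Voom called 5378, 1109 and 323 genes in the 3 comparisons. The fit was tested on simulated data.

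The labels of the PBS and GGsTop libraries share the numbers 1 to 3, with nothing said of what a number marks. Deviations of same-numbered libraries from their group means correlated at 0.367, 0.427 and 0.428. PBS 1 correlated more with GGsTop 3 (0.457) and PBS 2 with GGsTop 4 (0.637), so these values cannot show that a number marks a pair. The replicate block is an alternative fit that treats equal numbers as pairs.

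The 9 genes and all gene lists were chosen with earlier results of these data known. Named are the 9 genes, every gene of the receptor, ligand and inducing-signal lists that was called, with Ccr1, Ackr1 and Ackr2, up to 3 genes of other lists by the p-value of GGsTop against vehicle, and the 3 genes most correlated with each member. The other marker and signalling genes were named after their values were seen. Some genes of these lists are not reported here. Promoters are RefSeq sequences of GRCm38.p6. Figures were drawn with matplotlib 3.10.9 in Python 3.11.15.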

Additional observations from a re-analysis of the deposited data

Results flagged for a closer look

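In 18 groups of 4 libraries, a single value lay far from the other 3 by Dixon's test at the 95% level, where chance gives about 1 in 20 groups, in 3 instances. Ccl12 was low in GGsTop library 1, at 1.24 FPKM. Ccl3 was low in vehicle library 56, at 0.901 FPKM, and in GGsTop library 3, at 1.24 FPKM. These values rest on 10, 11 and 15 fragments.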

How the results depend on the processing

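The fit without libraries 12, 34 and 56 called 4 genes against PBS and 0 against GGsTop, and none of the 9. The GC correction also called none of the 9 in any comparison, with 3001, 313 and 609 genes in vehicle against PBS, GGsTop against vehicle and GGsTop against PBS. Array weights called 7, 3 and 3 of the 9, and 5214 and 2557 genes in the last 2 comparisons. With GGsTop against the vehicle, only the 2 groups compared gave 2 of the 9 and 3525 genes, the same FPKM total 2181 genes and the same median 791. Against PBS, a pseudocount of 0.1 or a minimum mean of 1 FPKM called 1 of the 9 (Ccl9), no filter called 208 genes, only the 2 groups compared 39 and the replicate block 62, while the block with the GC correction called 415. Of the genes named, the block changed the calls of Gzma, Prf1 and Ncr1 and no other. Leaving out each library called 2 to 7, 0 to 2 and 0 to 1 of the 9, and 3064 to 6440, 24 to 1052 and 29 to 1597 genes. Signs turned for Ccl12 after the GC correction (−0.22 and 0.01 in the first 2 comparisons), for Ccl9 with GGsTop against the vehicle at the same FPKM total (0.08) and after the GC correction (0.27), for Ccl6 there without the 3 libraries (−0.68), for Ccl7 against PBS with block and GC correction (−0.11), and for Tg (−0.30 and 0.19) and Pth (−0.07) without the 3 libraries. Leaving out a library turned Ccl12 against PBS in the vehicle group (range −0.04 to 0.41) and in the GGsTop group (−0.31 to 0.10), and Ccl6 (−0.20 to 0.38) and Ccl9 (−0.18 to 0.15) with GGsTop against vehicle. The cause was not tested. Depth limits Ccl4, Ccl3 and Ccl12 most, at 2 to 36 fragments a library.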
